A study of Mus musculus with 24 samples.

Results

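Acadvl, Acadl, Acadm, Acads and Acadsb encode acyl-CoA dehydrogenases of mitochondria, and Etfa, Etfb and Etfdh encode the proteins that take over their electrons. Every probe set that the array's probe table assigns to these 8 genes was used. These were 10 of the 45037 probe sets that are not controls, and the 8 genes stood among 18193 genes measured. Acadl and Etfdh had 2 probe sets each and the other genes 1. The arrays held RNA from livers and hearts of wild-type (WT) mice and of mice without Ppara (KO), the gene of the nuclear receptor PPARα. All were SV129 mice 10 to 12 weeks old, sampled at zeitgeber hour 14, with 12 animals of each sex and genotype. For each sex and genotype the RNA of 4 animals was pooled on each array, which gave 3 pools in each of 8 groups of tissue, sex and genotype. Pools 1 to 3 were WT males, 4 to 6 KO males, 7 to 9 WT females and 10 to 12 KO females, in liver as in heart. How the KO allele was made, and in which cells Ppara is lost, are not given in the sources used here.

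In mitochondrial beta-oxidation an acyl-CoA dehydrogenase catalyses the first, oxidizing step of each round, and the enzymes divide the work by the length of the chain. Their electrons pass to the electron transfer flavoprotein (ETF), a dimer of the products of Etfa and Etfb, and from there through ETF:ubiquinone oxidoreductase, the product of Etfdh, to ubiquinone in the inner membrane. PPARα is bound by fatty acids and raises transcription of many genes of fatty acid oxidation in liver, heart and other tissues, often through a direct repeat of the hexamer AGGTCA with a spacer of 1 base. Inherited defects of some of the human dehydrogenases limit fasting tolerance, and those of the ETF proteins block many dehydrogenases together.

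The question of the comparison was how much of the RNA of each enzyme depends on Ppara, and whether that follows chain length. Acadvl and Etfdh were lower in KO in both tissues and both sexes, to between 30.4% and 49.8% of the WT level. Acadl fell in liver, to 44.6% of WT in females and 35.9% in males, and was not called in heart. Acadm had calls in heart (72.1% of WT in females, 67.9% in males) and none in liver. Its effects in liver and heart differed by the direct test in males (limma adjusted p = 0.00615) and not in females (limma adjusted p = 0.809). Acads was lower in all 4 comparisons, Etfb in liver, and neither Acadsb nor Etfa was called anywhere.

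Windows of the promoters are shown because PPARα acts through such sites, and 3 were chosen for their contrast. Acadvl and Etfdh were called lower in all 4 comparisons, as was Acads, and Etfa, which was not called, held the closest match to the repeat. RefSeq (assembly GRCm38.p6) gave 1 window of 300 bases for each of the 8 genes, 250 before the gene's start and 50 after it. The 250 bases before the start are printed 5′ to 3′ on the gene's strand, which is the minus strand for all 3. In capitals stand an exact hexamer AGGTCA in Acadvl (chr11:70015429-70015678) and the match to the repeat in Etfa (chr9:55512244-55512493), while Etfdh (chr3:79628768-79629017) has neither.
Acadvl: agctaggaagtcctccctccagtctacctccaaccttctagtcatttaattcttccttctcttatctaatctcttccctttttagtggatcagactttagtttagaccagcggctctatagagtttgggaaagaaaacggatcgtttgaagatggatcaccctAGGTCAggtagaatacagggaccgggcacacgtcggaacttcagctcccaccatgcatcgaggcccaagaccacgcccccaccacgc
Etfdh: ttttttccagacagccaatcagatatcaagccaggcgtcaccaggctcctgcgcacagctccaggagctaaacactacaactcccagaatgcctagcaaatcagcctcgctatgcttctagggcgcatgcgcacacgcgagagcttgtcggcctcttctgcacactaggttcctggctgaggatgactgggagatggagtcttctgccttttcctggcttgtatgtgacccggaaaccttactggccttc
Etfa: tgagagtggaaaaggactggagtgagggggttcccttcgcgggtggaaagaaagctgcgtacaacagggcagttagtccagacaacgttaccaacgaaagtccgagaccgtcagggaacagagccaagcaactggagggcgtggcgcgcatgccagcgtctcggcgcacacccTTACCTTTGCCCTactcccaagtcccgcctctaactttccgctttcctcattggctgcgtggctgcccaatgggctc

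The motif searched, on both strands of the whole window, was AGGTCANAGGTCA with N free and at most 3 of the other 12 bases different. A match within that limit occurred in 3 of the 8 windows and in 24.6% of 32851 RefSeq windows of the same length. The match in Etfa, TTACCTTTGCCCT on the printed strand, differed at 2 bases, begins 77 bases before the start and reads as the repeat on the other strand. At most 2 bases differed in 3.86% of all windows. Etfb (3 bases different, 142 before the start) and Acadm (3 bases different, in the transcribed part) held the other matches. The best match differed at 4 bases in Acadvl, Acads and Etfdh and at 5 in Acadl and Acadsb. The exact hexamer, which is also part of the repeat, was found in Acadvl and Acadm, 2 of 8 windows, and in 16.3% of all windows. These are matches of letters in a short window, and a window without a match says only that these letters are not in it.

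Before the results, a few facts of the arrays bear on them. On the log2 intensity scale the medians of whole arrays were 2.43 to 2.49 for liver and 3.01 to 3.07 for heart. The tissues were probably normalized apart, so levels are compared only within a tissue. Brightness also depends on the probes, so no gene's level is set against that of another. Hepatocyte markers, 7 of 8 measured, had list medians from 12.1 to 12.6 in liver, and all 8 cardiomyocyte markers had medians from 13.0 to 13.2 in heart. Within each tissue and sex, the Ppara signal of all KO pools lay under that of all WT pools, although its probes' place relative to the deleted part is not known. Xist, which marks female cells, stood at 6.62 in male KO heart pool 4, where other male hearts reached 3.12 and female hearts began at 7.32. The same pool had the highest median of 11 skeletal muscle markers, 4.52, where WT male hearts had 3.01 to 3.28. Female KO heart pool 10 had Eif2s3y, a Y-linked gene, at 3.34, where other female hearts had at most 2.50, and the highest summed intensity of hepatocyte markers, 337.3. The heart differences between KO and WT of the 8 genes are therefore also given without these 2 pools.

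**Figure D1:**
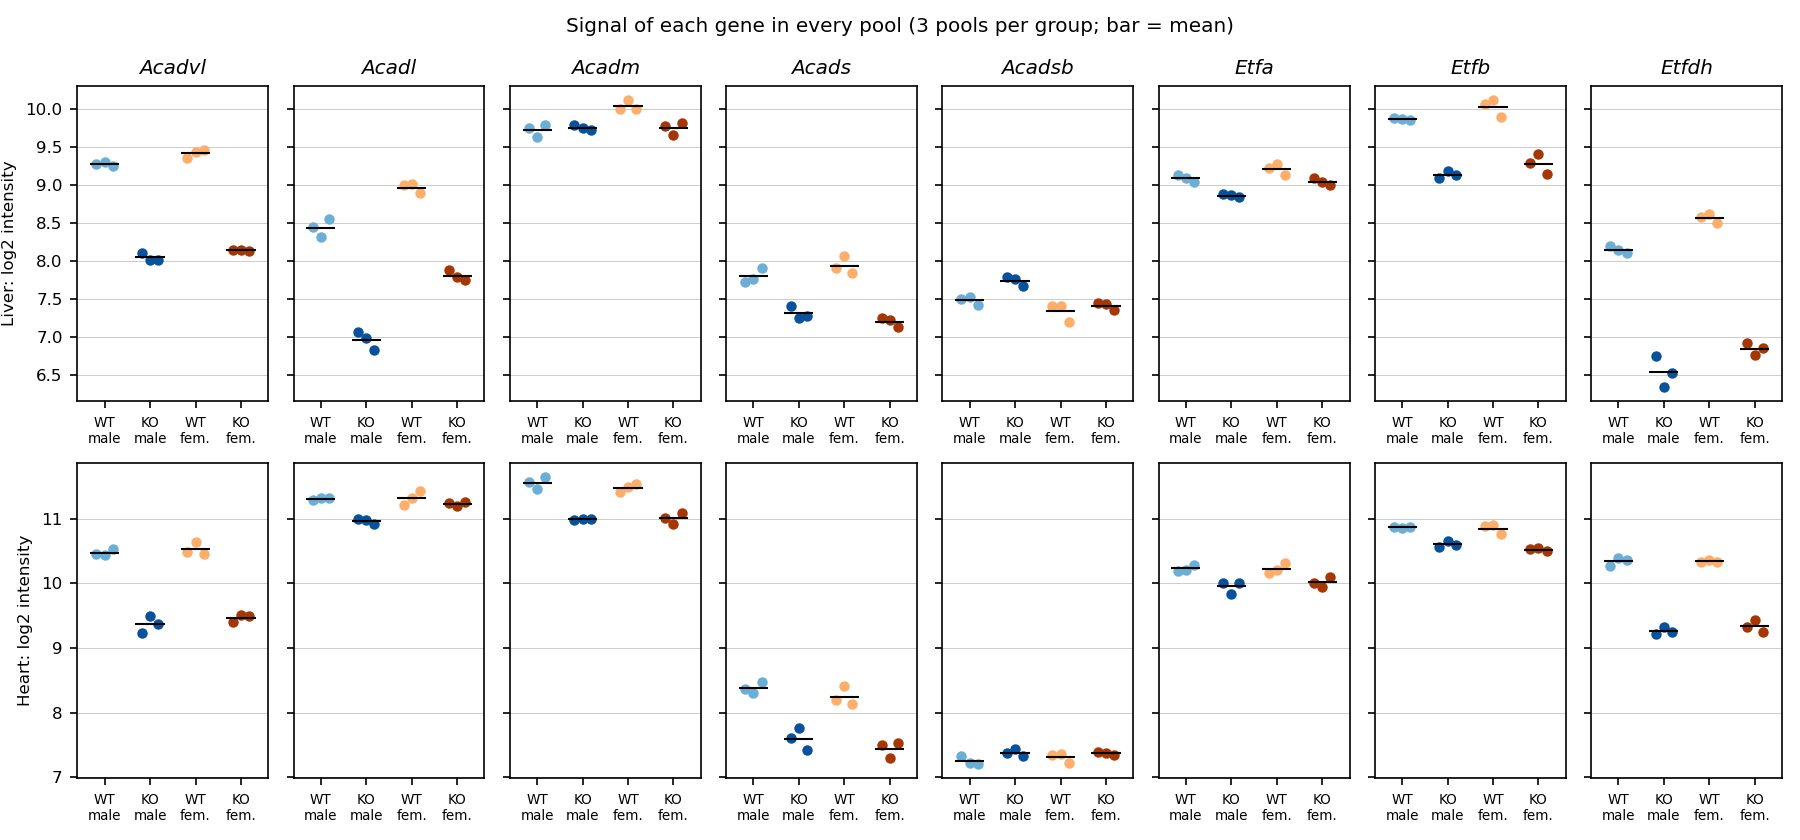
Log2 intensity of the 8 genes (columns) in each pool, with liver in the upper row and heart in the lower row; points are the 3 pools of a group and bars their mean. KO pools lie below the WT pools of their sex in both tissues for Acadvl, Acads, Etfa, Etfb and Etfdh and in liver for Acadl, and they overlap with them for Acadsb in 3 of 4 comparisons.

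Acadvl encodes the very-long-chain dehydrogenase, which sits on the inner membrane and starts the oxidation of long chains. In liver its log2 level was 9.35, 9.44 and 9.46 in WT females and 8.14, 8.15 and 8.13 in KO females. In males the WT pools had 9.27, 9.30 and 9.25 and the KO pools 8.11, 8.01 and 8.01. All KO pools lay more than 1 log2 unit below all WT pools, and the KO pools of a sex lay close together. The difference was -1.28 in females (SE 0.07, limma adjusted p = 4.15e-07) and -1.23 in males (SE 0.07, limma adjusted p = 1.53e-06). In heart WT females had 10.49, 10.64 and 10.46 and KO females 9.41, 9.51 and 9.49. WT males had 10.45, 10.43 and 10.53 and KO males 9.23, 9.496 and 9.36, with pool 4 the lowest. Heart groups did not overlap either, with differences of -1.06 in females (SE 0.09, limma adjusted p = 7.5e-06) and -1.11 in males (SE 0.09, limma adjusted p = 4.64e-06). Without heart pools 4 and 10 the differences were -1.03 and -1.04. In order of level, the groups ran from WT females to WT males, KO females and KO males in both tissues, and the sexes of a genotype did not differ by the test.

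Acadl encodes the long-chain dehydrogenase of the matrix, which in mice overlaps with the very-long-chain enzyme in the chains it takes. In liver its level was 8.99, 9.01 and 8.89 in WT females and 7.87, 7.78 and 7.74 in KO females. WT males had 8.44, 8.31 and 8.55 and KO males 7.06, 6.98 and 6.82. The groups did not overlap and fell in the order of WT females, WT males, KO females and KO males. The difference was -1.16 in females (SE 0.09, limma adjusted p = 1.32e-05) and -1.48 in males (SE 0.09, limma adjusted p = 1.53e-06). In heart the pools of WT females, 11.21, 11.32 and 11.42, overlapped with those of KO females, 11.24, 11.20 and 11.26. Male hearts had 11.30, 11.33 and 11.31 in WT and 10.99, 10.98 and 10.92 in KO, so these groups did not overlap. The heart differences were -0.08 in females (95% interval -0.25 to 0.08, limma adjusted p = 0.923) and -0.35 in males (-0.51 to -0.18, limma adjusted p = 0.0915). With a trended, robust variance the male heart value passed (limma adjusted p = 0.000159, from 0.000159 to 0.443 over its alternatives). Without heart pools 4 and 10 the heart differences were -0.09 and -0.36. With the mean of both probe sets, the second of which is dim, the liver differences were -0.63 in females and -0.70 in males and still passed (limma adjusted p = 0.000403 and 0.000172).

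Acadm encodes the medium-chain dehydrogenase, the enzyme whose human deficiency is the most often met of this family. Its heart levels were 11.42, 11.49 and 11.54 in WT females and 11.02, 10.92 and 11.09 in KO females. WT males had 11.56, 11.45 and 11.64 there, and KO males 10.98, 11.001 and 10.99. Every KO heart lay below every WT heart, and the 4 groups fell into the order of WT males, WT females, KO females and KO males. Neighbours of the same genotype in that order did not differ by the test. The difference was -0.47 in females (SE 0.08, limma adjusted p = 0.0115) and -0.56 in males (SE 0.08, limma adjusted p = 0.00227). The female call was lost without heart pool 8, 9, 10 or 11, or without pools 4 and 10 together, with differences from -0.48 to -0.43 and limma adjusted p from 0.0547 to 0.0822 (3.28e-06 to 0.0822 over all its alternatives). The male value without pools 4 and 10 was -0.55 and passed (limma adjusted p = 0.0312).

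In liver Acadm did not pass. WT females had 10.00, 10.11 and 10.00 and KO females 9.77, 9.66 and 9.81, which do not overlap. WT males had 9.74, 9.63 and 9.79, and KO males lay among them with 9.79, 9.74 and 9.72. WT females thus stood above the other liver groups, whose pools overlapped. The difference was -0.29 in females (95% interval -0.46 to -0.13, limma adjusted p = 0.160) and 0.03 in males (-0.14 to 0.19, limma adjusted p = 0.949). Array weights gave a female difference of -0.35 that passed (limma adjusted p = 0.0206, from 0.0206 to 0.502 over its alternatives).

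Acads encodes the short-chain dehydrogenase, which acts on the last carbons of a chain. In liver it had 7.90, 8.06 and 7.84 in WT females and 7.25, 7.22 and 7.12 in KO females. WT males had 7.72, 7.76 and 7.91 there and KO males 7.41, 7.25 and 7.27. In heart it had 8.20, 8.40 and 8.13 in WT females and 7.503, 7.29 and 7.54 in KO females. Male hearts had 8.36, 8.31 and 8.47 in WT and 7.60, 7.76 and 7.42 in KO. No KO pool reached any WT pool of its tissue and sex. The differences were -0.74 in female liver (SE 0.09, limma adjusted p = 0.000725), -0.80 in female heart (SE 0.11, limma adjusted p = 0.000942) and -0.78 in male heart (SE 0.11, limma adjusted p = 0.00111). In male liver the difference was -0.49 (SE 0.09, limma adjusted p = 0.0192). Without liver pool 1, 2, 3, 5 or 6 its size stayed near that, from -0.53 to -0.43, but it no longer passed (limma adjusted p from 0.0536 to 0.108, and from 0.00883 to 0.108 over all its alternatives). The heart differences without heart pools 4 and 10 were -0.83 in females and -0.79 in males and passed (limma adjusted p = 0.00943 and 0.0135).

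Acadsb encodes a dehydrogenase for short branched chains, which serves the breakdown of isoleucine rather than of straight fatty acids. Its only probe set has a name ending in _x_at, so it can also bind related transcripts. In liver it had 7.40, 7.41 and 7.19 in WT females and 7.44, 7.43 and 7.35 in KO females. WT males had 7.49, 7.52 and 7.42, and KO males were the highest group with 7.78, 7.76 and 7.66. In heart the 12 pools lay between 7.20 and 7.44, and WT and KO overlapped in both sexes. None of the 4 differences passed, at 0.07 and 0.26 in female and male liver (limma adjusted p = 0.991 and 0.317) and 0.06 and 0.12 in female and male heart (limma adjusted p = 0.949 and 0.875). The intervals were -0.10 to 0.25, 0.09 to 0.43, -0.10 to 0.23 and -0.04 to 0.29. Leaving out heart pools 4 and 10 gave heart values of 0.06 and 0.13.

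Among the electron carriers, Etfdh, by its brighter probe set, had the largest difference of the 8 genes in liver. Its product is the single route from ETF to the respiratory chain. Liver pools of WT females had 8.58, 8.61 and 8.49, and those of KO females 6.92, 6.76 and 6.85. WT males had 8.19, 8.13 and 8.10 and KO males 6.75, 6.34 and 6.52. The KO pools lay at least 1 log2 unit under the WT pools, and KO males had the widest spread, with an SD of 0.21. The level was 3.29-fold lower in KO females (difference -1.72, SE 0.10, limma adjusted p = 5.62e-07) and 3.04-fold lower in KO males (difference -1.60, SE 0.10, limma adjusted p = 1.53e-06). With the mean of both probe sets, the second of which is dim, the differences were -0.87 and -0.81 and still passed (limma adjusted p = 3.82e-05 and 0.000127). These were smaller in size than those of Acadvl, whose only probe set is not averaged with a dim one. In heart WT females had 10.33, 10.36 and 10.33 and KO females 9.32, 9.43 and 9.25. WT males had 10.27, 10.40 and 10.36 there and KO males 9.21, 9.32 and 9.25. Both heart differences were near 1 log2 unit, -1.01 in females (SE 0.08, limma adjusted p = 3.8e-06) and -1.08 in males (SE 0.08, limma adjusted p = 1.75e-06), and -0.999 and -1.06 without heart pools 4 and 10. With the mean of probe sets the heart differences were -0.53 and -0.58 (limma adjusted p = 0.00199 and 0.000886).

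The 2 subunits of ETF, whose products form a dimer, differed from each other in liver. Etfb had 10.07, 10.11 and 9.89 in livers of WT females and 9.29, 9.41 and 9.14 in those of KO females. In males it had 9.88, 9.87 and 9.85 in WT and 9.09, 9.18 and 9.13 in KO. These groups did not overlap, and Etfb was lower by -0.75 in females (SE 0.09, limma adjusted p = 0.000723) and by -0.73 in males (SE 0.09, limma adjusted p = 0.000923). Etfa had 9.23, 9.27 and 9.13 in WT females, 9.09, 9.03 and 9.001 in KO females, 9.13, 9.09 and 9.03 in WT males and 8.88, 8.86 and 8.84 in KO males. Within each sex the KO pools of Etfa lay under the WT pools by little, and across the sexes they overlapped. Its differences of -0.17 and -0.23 did not pass (limma adjusted p = 0.609 and 0.317).

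In heart neither subunit was called. Etfb had 10.89, 10.89 and 10.76 in WT females against 10.53, 10.54 and 10.49 in KO females, and 10.88, 10.86 and 10.87 in WT males against 10.56, 10.66 and 10.59 in KO males. Etfa had 10.16, 10.21 and 10.31 against 10.00, 9.95 and 10.10 in females, and 10.20, 10.21 and 10.29 against 10.01, 9.84 and 10.00 in males. All KO hearts lay below the WT hearts of their sex for both genes. The differences were -0.33 and -0.26 for Etfb (limma adjusted p = 0.0853 and 0.300) and -0.21 and -0.28 for Etfa (limma adjusted p = 0.611 and 0.361), in females and males. They were, without heart pools 4 and 10, -0.33 and -0.24 for Etfb and -0.20 and -0.31 for Etfa. With a trended, robust variance Etfb passed in female and male heart (limma adjusted p = 0.000383 and 0.00553) and Etfa in male heart (limma adjusted p = 0.0276). Over all alternatives these p-values ran from 0.000383 to 0.356, from 0.00553 to 0.638 and from 0.0276 to 0.681. Etfb in female heart also passed among genes above the median level and with the mean of probe sets (limma adjusted p = 0.0499 and 0.0262).

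**Figure D2:**
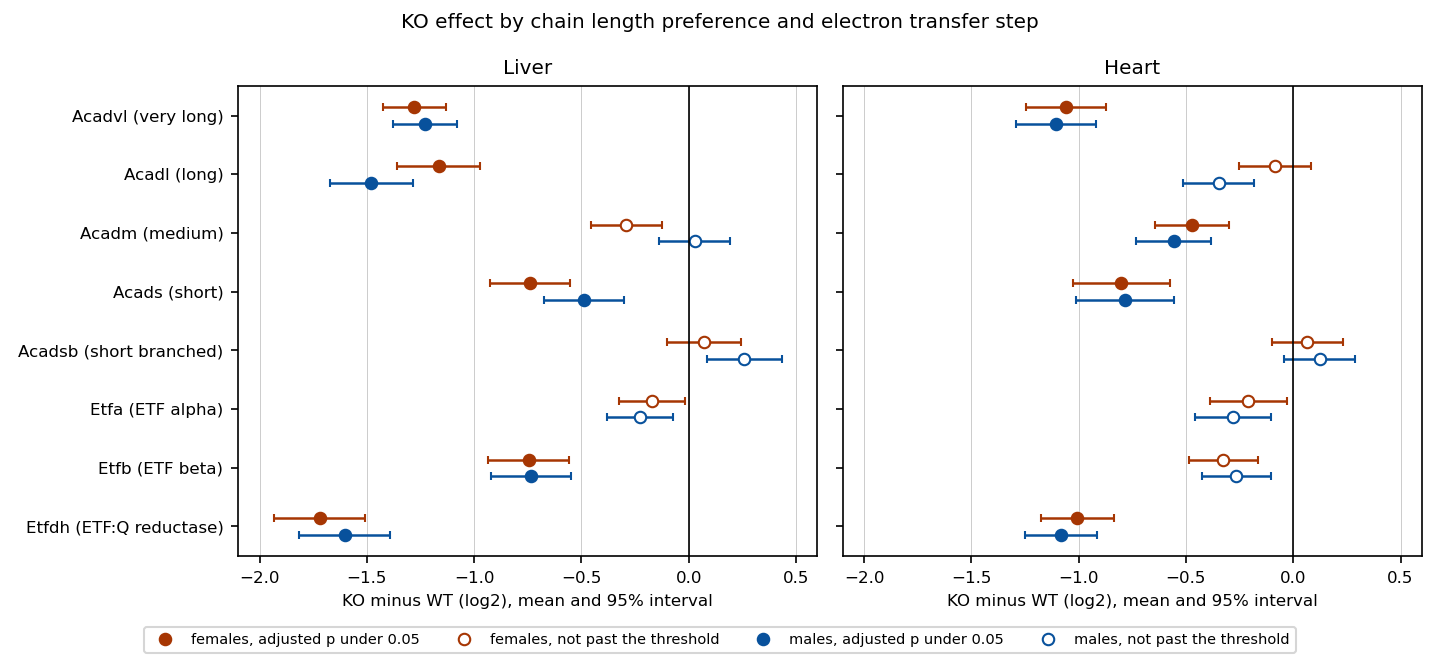
KO minus WT difference in log2 intensity of the 8 genes, ordered by chain length and then by step of electron transfer, in liver and heart; points are fitted differences, bars 95% intervals, and filled points passed at a limma adjusted p under 0.05. In liver Etfdh is farthest to the left at -1.72 in females and -1.60 in males, and in heart Acadvl and Etfdh lie near -1 while Acadl lies near 0 in females.

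Counted together, 5 of the 8 genes were lower in KO in female liver, where 0.451% of all genes were, and 5 in male liver, where 0.434% were. In heart 4 were lower in females, against 0.412% of all genes, and 4 in males, against 0.319%. None was higher. Without heart pools 4 and 10 these heart counts were 3 and 4, and with a trended, robust variance 7 in male heart. In either direction, 59 and 61 of all genes passed in female and male heart without these pools, against 97 and 73 with them. The trended, robust variance called 96 of all genes in male heart. The median difference of the 8 genes was -0.74 and -0.61 in female and male liver and -0.40 and -0.45 in female and male heart, where the median over all genes lay within 0.02 of 0. All KO pools lay below all WT pools for 7 of 8 genes in female liver, 6 in male liver, 6 in female heart and 7 in male heart. Of all genes, 5.21%, 8.09%, 6.58% and 5.46% did so in the same order. In whole tissue, fewer cells of a type and less RNA per cell cannot be told apart. The second probe sets of Acadl and Etfdh were dim, at 1.85 to 2.19 in liver and 2.17 to 2.85 in heart, below the array medians. Their differences between KO and WT ran from -0.09 to 0.08, the smallest limma adjusted p over all probe sets being 0.829. Averaging such a set with a brighter one shrinks the difference by construction. The mean of probe sets therefore cannot rank Acadl or Etfdh against genes with a single probe set.

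The size of the KO effect did not follow chain length in a single order. It was compared between 8 pairs of genes in each tissue, over both sexes, with an exact two-sided permutation test of KO and WT pools within each sex, whose smallest possible p is 0.005. In liver the very-long-chain and long-chain genes did not differ by the test, with an effect of Acadvl minus that of Acadl of 0.07 (-0.11 in females, 0.25 in males, exact p = 0.415, 0.443 adjusted over 16 comparisons). The step lay between long and medium chains, where Acadl was more negative than Acadm by -1.19 (-0.87 in females and -1.51 in males). Acads was again more negative than Acadm, with a difference of 0.48, and than Acadsb, with -0.78. In heart the order of the first 3 changed. Acadvl was more negative than Acadl by -0.87, while Acadl was less negative than Acadm by 0.30 (0.39 in females and 0.21 in males), Acadm less than Acads by 0.28, and Acads was more negative than Acadsb by -0.89. Acadvl was more negative than Acads in both tissues, by -0.64 in liver and -0.29 in heart. Each of these differences other than Acadvl minus Acadl in liver had the smallest exact p of 0.005, and 0.00571 after adjustment. The heart values without heart pools 4 and 10 kept their direction and passed (exact adjusted p = 0.0114 for each), with Acadvl minus Acadl at -0.81, Acadl minus Acadm at 0.29, Acadm minus Acads at 0.30, Acads minus Acadsb at -0.90 and Acadvl minus Acads at -0.22.

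The same test was made along the path of the electrons. In liver Etfdh was more negative than Etfa by -1.46 and than Etfb by -0.92, and Etfb more negative than Etfa, with Etfa minus Etfb at 0.54. In heart Etfdh was more negative than Etfa by -0.80 and than Etfb by -0.75. All 5 had an exact p of 0.005 and an adjusted p of 0.00571. In heart Etfa and Etfb did not differ by the test, at 0.05 (0.12 in females, -0.02 in males, exact p = 0.475, adjusted p = 0.475). Without heart pools 4 and 10 Etfdh minus Etfa was -0.77, Etfdh minus Etfb -0.74 (exact adjusted p = 0.0114 for both) and Etfa minus Etfb 0.03 (exact adjusted p = 0.76). With the mean of probe sets, which takes in the dim second sets, Etfdh minus Etfb in liver was -0.10 (exact adjusted p = 0.187, from 0.00571 to 0.187 over its alternatives) and Acadvl minus Acadl there turned to -0.59 (exact adjusted p = 0.00571). The same setting moved Acadl minus Acadm in liver to -0.53, Etfdh minus Etfa to -0.64 in liver and -0.31 in heart, and Etfdh minus Etfb in heart to -0.26, which still passed.

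The KO effect was then set between the tissues, as the liver effect less the heart effect. In females 2 of 8 genes passed, where 0.698% of all genes did, and in males 2, where 0.517% did. Acadl was lowered far more in liver in both sexes, by -1.08 in females (SE 0.12, limma adjusted p = 4.38e-06) and -1.13 in males (SE 0.12, limma adjusted p = 3.04e-06). Etfdh was lowered more in liver in females, by -0.71 (SE 0.12, limma adjusted p = 0.00269), and stood at -0.52 in males (limma adjusted p = 0.0578). Acadm was lowered more in heart in males, by 0.59 (SE 0.11, limma adjusted p = 0.00615), and stood at 0.18 in females (limma adjusted p = 0.809). Etfb stood at -0.42 in females and -0.47 in males (limma adjusted p = 0.0982 and 0.0550). Acadvl, Acads, Acadsb and Etfa lay between -0.22 and 0.30 without passing. The calls of Acadl, Acadm and Etfdh held without heart pools 4 and 10, and that of Etfdh in females was lost with the mean of probe sets, at -0.34 (limma adjusted p = 0.173, from 0.000309 to 0.173 over its alternatives). The mean of probe sets put Acadl at -0.56 in females and -0.49 in males, which passed (limma adjusted p = 0.00231 and 0.0116). Some values that missed passed under other settings. Etfdh in males reached -0.63 without liver pool 4 (limma adjusted p = 0.00819, from 0.00819 to 0.565 over its alternatives), and with all pools it passed with a trended variance, array weights and median centring (limma adjusted p = 0.0235, 0.0408 and 0.0347). Etfb in females reached -0.49 without liver pool 9 or 11 (limma adjusted p = 0.0387 and 0.0448, from 0.0175 to 0.376 over its alternatives) and passed with all pools with a trended variance, quantile normalization and the mean of probe sets (limma adjusted p = 0.0175, 0.0314 and 0.0329). Etfb in males passed with these and with array weights and median centring (limma adjusted p from 0.00631 to 0.0498, and to 0.1504 over all its alternatives).

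**Figure D3:**
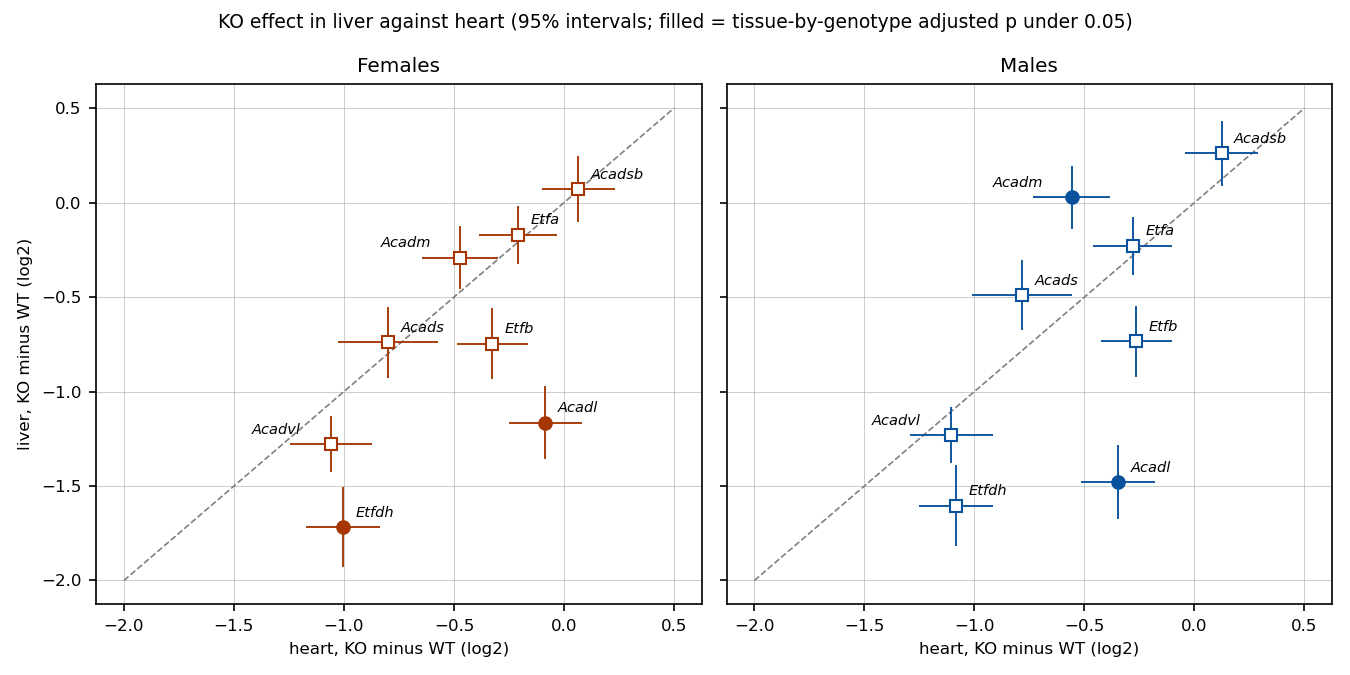
KO minus WT difference in log2 intensity in liver (vertical axis) against heart (horizontal axis) for each of the 8 genes, females left and males right, with 95% intervals; filled circles passed the tissue-by-genotype test and the dashed line marks equal effects. Acadl lies farthest below the line in both sexes, and Acadm in males lies above it.

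The sexes were compared in the KO effect and within each genotype. No gene of the 8 passed the sex-by-genotype test in liver, where 0.066% of all genes did, or in heart, where 0.0% did, 0 of 18193 genes. At an unadjusted p under 0.05 limma gave 870 genes in liver, 2 of the 8 among them, and 820 in heart, with 1 of the 8. These were Acadl and Acadm in liver, at 0.32 and -0.32 as the effect in females minus that in males (limma adjusted p = 0.994 and 0.860), and Acadl in heart at 0.26 (limma adjusted p = 0.978). The levels of Acadl did differ between the sexes in liver. Females were above males by 0.53 in WT (SE 0.09, limma adjusted p = 0.00676), a comparison in which 0.803% of all genes were higher in females, and by 0.84 in KO (SE 0.09, limma adjusted p = 0.000147), where 1.15% were. Acadl was the 1 gene of 8 called in each, and with the mean of probe sets it stood at 0.30 and 0.37 (limma adjusted p = 0.0413 and 0.0106). Etfdh and Acadm were at 0.42 and 0.31 in WT liver (limma adjusted p = 0.0512 and 0.0617) and Acadsb at -0.33 in KO liver (limma adjusted p = 0.0586), all short of the threshold. With array weights 3 genes passed in WT liver and 2 in KO liver. Of all genes, 520 and 734 passed with these weights, against 320 and 352 without them. In heart none of the 8 differed between females and males, in WT, where 0.0275% of all genes did, or in KO, where 0.011% did. At an unadjusted p under 0.05 limma gave none of the 8 in WT hearts, where 6.18% of all genes passed. It gave Acadl, at 0.27, in KO hearts, where 6.76% of all genes passed.

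The genes around the 8 in the same pathway were taken from fixed lists. Of 16 measured genes for the other steps of mitochondrial beta-oxidation and the breakdown of propionyl-CoA, 9 were lower in KO in female liver, 7 in male liver, 8 in female heart and 8 in male heart, and none was higher. Of all genes, 0.451%, 0.434%, 0.412% and 0.319% were lower in the same order. Their median differences were -0.48, -0.29, -0.46 and -0.48. Slc25a20, the carrier of acylcarnitines across the inner membrane, was lower by -2.09 and -1.85 in female and male liver and by -1.76 and -1.77 in female and male heart. Eci2 and Eci1, isomerases that prepare unsaturated chains for oxidation, were at -2.03 and -1.64 in female liver and at -0.64 and -0.59 in female heart. Decr1, a reductase for unsaturated chains, was at -0.75 in female liver and -1.79 in female heart. All these values passed, and Acsl1 was not analysed here.

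Closer relatives of the dehydrogenases, other enzymes that feed ETF, and genes for riboflavin supply made up another list. Of its 16 measured genes 1 was lower in female liver, where 0.451% of all genes were, and none was called in the other 3 comparisons, with medians of -0.04, -0.01, 0.00011 and -0.06 in the order of female and male liver and female and male heart. That gene was Acad11, a relative that prefers long chains, which fell from 9.90 ± 0.11 in WT to 9.43 ± 0.13 in KO (SD, n = 3 pools each, limma adjusted p = 0.0254). None of the 3 peroxisomal oxidase genes Acox2, Acox3 and Acoxl passed in any of the 4 comparisons, and their medians were 0.09, 0.01, 0.02 and -0.02. Slc52a2 was not analysed here.

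**Figure D4:**
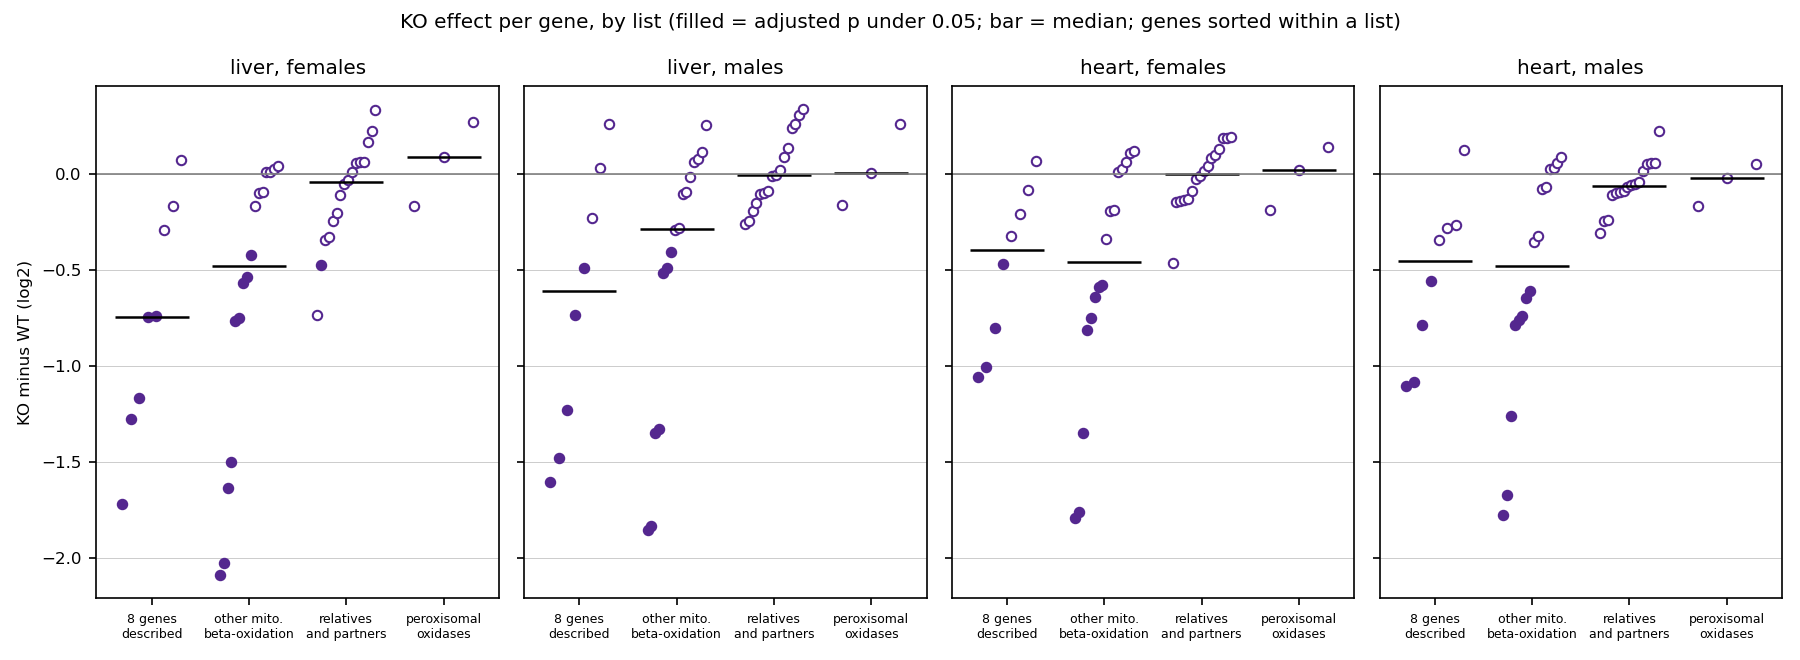
KO minus WT difference in log2 intensity of each gene (points, sorted within a list) in the 4 comparisons, for the 8 genes and the 3 neighbouring lists; filled points passed at a limma adjusted p under 0.05 and bars are list medians. The 8 genes and the other beta-oxidation genes spread downwards from near 0. The medians of the relatives and of Acox2, Acox3 and Acoxl lie near 0. Single relatives lie farther off, and 1 of them is a filled point, in female liver.

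The genes with the most similar pattern were found by Pearson correlation of levels over the 12 arrays of a tissue, as a description. These arrays fall into WT and KO, so any gene that differs between genotypes correlates with the others. In liver Acadvl was closest to Eci2 and Eci1 (r = 0.991 and 0.990), Etfdh to Slc25a20 and Acadvl (0.991 and 0.987), and Etfb to Cpt2 and Slc25a20 (0.986 and 0.986). Acadl followed Mmd and Ech1 (0.974 and 0.968) and Acads followed Decr1 and Adtrp (0.971 and 0.970). Etfa was closest to Mfsd2a and St3gal5 (0.946 and 0.944), Acadm to C130050O18Rik and Tpm2 (0.917 and 0.905), and Acadsb to Etnppl and Slc6a9 (0.980 and 0.911). In heart Acadvl was closest to Hadha and Ech1 (0.994 and 0.991), Etfdh to Ech1 and Acadvl (0.992 and 0.991), Acadm to Coq3 and Abcd3 (0.978 and 0.976), and Acads to Coq3 and Dhrs4 (0.982 and 0.978). Etfb was closest to Tesc and Iba57 (0.970 and 0.970) and Etfa to Cat and Acadm (0.935 and 0.918). The closest genes to Acadl were Abcc9 and Prnp (0.910 and 0.882), and those to Acadsb were Gstp1 and Prl (0.892 and 0.891). Of the other 7 genes, the one closest to Acadm was Acadl in liver (0.628) and Acadvl in heart (0.962).

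Other cell types and RNA quality were read on the same arrays. In heart, leukocyte markers (6 of 6 measured) had list medians of 4.06 to 4.72 in KO males and 3.75 to 3.82 in WT males, and summed intensities of 418.6 to 681.4 and 484.6 to 526.9. Skeletal muscle markers (11 of 11) had medians of 3.39 to 4.52 in KO male hearts and 3.01 to 3.28 in WT male hearts, and 3.28 to 3.40 and 3.18 to 3.25 in KO and WT female hearts. Their summed intensities ran the other way, at 422.6 to 743.2 in KO and 573.0 to 1228 in WT male hearts and 350.4 to 495.1 and 525.9 to 783.4 in female hearts. Myh1 lay under the heart median on every array. Adipocyte markers (4 of 6 measured, with Lep under the heart median on every array) summed to 2191 to 2468 in KO and 1676 to 2058 in WT female hearts, and to 2026 to 2830 and 1846 to 2022 in male hearts. Their list medians ran the other way in female hearts, at 4.54 to 5.8 in KO and 5.9 to 6.35 in WT. In male hearts the medians overlapped, at 4.57 to 6.37 in KO and 5.15 to 6.06 in WT. Brown adipocyte markers (5 of 5) summed to 2600.0 to 2712 in KO and 2886 to 2912 in WT male hearts. Their list medians overlapped there, at 3.13 to 3.96 in KO and 3.0 to 3.43 in WT. In female hearts the erythroid sums (3 of 4 measured, with Hba-a1 under the heart median on every array) were 319.8 to 518.9 in KO and 534.5 to 826.1 in WT, and the endothelial sums (4 of 4) 450.6 to 492.0 and 412.4 to 438.0. Cardiomyocyte summed intensities were 66020 to 67560 in KO and 63860 to 64720 in WT female hearts, and 61010 to 64930 and 62960 to 66070 in male hearts. In liver, hepatocyte summed intensities were 43860 to 44950 in KO and 45400 to 48520 in WT females, and 41250 to 42320 and 41660 to 43390 in males, while Tnnt2, Myl2, Ryr2 and Pln lay under the liver median on every array. In female livers adipocyte sums were 22.24 to 26.25 in KO and 19.67 to 22.13 in WT, with Adipoq and Lep under the liver median on every array, and endothelial sums 51.8 to 55.73 and 56.72 to 69.27. In male livers the summed intensity of erythroid markers (3 of 4 measured) was 273.1 to 313.3 in KO and 191.5 to 216.2 in WT, and that of brown adipocyte markers (5 of 5) was 155.8 to 175.2 and 217.9 to 252.9, with Cidea under the liver median on every array. The list medians of the brown adipocyte markers ran the other way in male livers, at 2.46 to 2.62 in KO and 2.3 to 2.41 in WT. The summed intensities of these markers in female livers were only 30.4 to 33.82 in KO and 31.28 to 32.68 in WT. The part of these shifts in the differences of the 8 genes was not tested. The gap between 3′ and 5′ probe sets of Gapdh was 0.0834 to 0.122 in KO and 0.134 to 0.193 in WT female hearts (exact permutation p = 0.1, the smallest that 3 pools against 3 allow), and its part in the results was not tested either.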

How the data were processed

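RNA from 3 pools of 4 mice in each of 8 groups was measured on 24 Affymetrix arrays. The deposited values are log2 intensities per probe set, made by the authors with RMA per the submitters' processing notes; its version and the genome build are not given in the sources used here. Of 45101 probe sets, 64 were controls. A probe table gave 34945 a single gene, 932 several genes and 9160 none.

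From these values, 18193 genes were formed, each by the brightest of its probe sets with that gene alone. Tests came from limma 3.58.1 under R 4.3.3 (lmFit, then eBayes; two-sided), with p-values adjusted by Benjamini-Hochberg across genes and called under 0.05. The 12 arrays of each tissue were fitted together, and all 24 for the comparison of tissues, 12 comparisons in all. The text names all 8 genes, up to 4 called genes of each neighbouring list with separated pools, the 2 most similar genes per tissue, and Ppara, Xist and Eif2s3y as checks. The genes, lists and tests were chosen with earlier results of these data known. Within a tissue, pools are separate animals, so p-values measure the spread between pools, whose small number limits the precision. By the counts of animals, both tissues came from the same mice, and the main comparison of tissues treated their arrays as independent. The liver and heart arrays that share a pool number did not deviate together. The pipeline was tested on simulated data. Alternatives changed the arrays fitted, the variance model, array weights, normalization, centring, the filter on dim genes, the choice of probe set, the replicate block and the pools used.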

Additional observations from a re-analysis of the deposited data

Results flagged for a closer look

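The effect of the KO differed between liver and heart by the tissue-by-genotype test of limma for 3 genes. Acadl, the long-chain dehydrogenase gene, was lowered more in liver than in heart by -1.08 on the log2 scale in females and -1.13 in males. Etfdh, the gene of ETF:ubiquinone oxidoreductase, was lowered more in liver by -0.71 in females. Acadm, the medium-chain dehydrogenase gene, was lowered more in heart in males, with a value of 0.59. Liver and heart arrays were probably normalized apart, so these values set differences within a tissue side by side and not levels.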

How the results depend on the processing

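Of 1207 recomputed values for 70 results, 1159 kept their direction and their side of the threshold or stayed within 1.5 times a count. A trended, robust variance called 7 of the 8 genes lower in KO male heart, not 4. Of all genes it called 96 there in either direction, not 73. Between the sexes in KO liver, a fit of all 24 arrays, array weights, quantile normalization and the mean of probe sets each called 2 genes, not 1. Of all genes they called 611, 734, 430 and 360 in this order, not 352. In WT liver, the compared arrays alone and the mean of probe sets called 2, and all 24 arrays, the trended variance and array weights called 3, not 1. Of all genes these settings called 405, 340, 600, 405 and 520 in this order, not 320. For the tissue comparison in males, the trended variance, array weights and median centring called 4, not 2. Of all genes they called 96, 109 and 85, not 94. The causes of these changes were not tested. Direction turned for Acadm in male liver, at -0.016 without WT replicate 2 (-0.016 to 0.063 with each pool left out), and for Acadvl minus Acadl in liver, at -0.59 with the mean of probe sets, which averages in the dim second set of Acadl. Acadsb has no value without cross-hybridizing probe sets.

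With the pool number as a replicate block, the tissue comparison called 2 genes in each sex, as without it, and 111 of all genes in females and 67 in males, against 127 and 94. Acadl stood at -1.08 and -1.13 (limma adjusted p = 0.000401 and 0.000358). Deviations of liver and heart pools of the same number correlated at r from -0.20 to 0.10, over 0.1 in 1 of 12 pairs, and 4 of 12 correlated best with their own number. By the counts of animals, the liver and heart pools of a sex and genotype came from the same 12 mice. Whether pools of the same number hold the same 4 mice is not given in the sources used here.

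Over all genes, the count in female liver was 148, and 55 with the compared arrays alone, 267 with all 24 arrays and 326 with array weights. In male liver it was 110, and 169 and 180 with the compared arrays alone and all 24 arrays. In the female heart it was 97, and 59 without heart pools 4 and 10. For sex by genotype in liver it was 12, and 31 with all 24 arrays, 26 with array weights, 7 after quantile normalization and 6 with the mean of probe sets. For the tissues in females it was 127, and 63 with females alone and 253 with array weights. Between the sexes it was 320 in WT liver, and 600 and 520 with all 24 arrays and array weights, and 352 in KO liver, and 190, 611 and 734 with the compared arrays alone, all 24 arrays and array weights. In heart these counts were 5 in WT and 2 in KO, and 3 to 13 and 0 to 11 over the alternatives that keep all pools or leave out pools 4 and 10. Signals below the array median, as of the second probe sets of Acadl and Etfdh, limit what can be measured.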
